A study of Rattus norvegicus with 9 samples.

Results

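Mast cells and basophils of the rat tibial osteotomy site were chosen by their own RNA. A barcode was taken when it held 200 genes or more, no more than 20% of mitochondrial UMIs (unique molecular identifiers, each standing for 1 captured RNA molecule), at least 1 UMI of Ms4a2, at least 2 UMIs of Fcer1a, Cpa3, Hdc and Mcpt8 together, and at most 1 UMI of Cd79a, a B cell gene. This gate held 581 of 114232 cells. Because these genes selected the cells, their levels are given as description, and they were left out of the counts over gene groups below.

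Mast cells and basophils are granule-filled cells of the myeloid lineage that carry the high-affinity receptor for IgE. Crosslinking of that receptor starts a kinase cascade through Lyn and Syk, and the cell then releases histamine, proteases bound to proteoglycan, lipid mediators and cytokines. Mast cells mature in tissue under the Kit receptor, whereas basophils mature in the marrow and respond to interleukin 3. Rodent basophils are known for Mcpt8 and Prss34, and mast cells for tryptases, chymases and carboxypeptidase A3 (Cpa3).

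Cells came from a circular osteotomy of the proximal tibia in male Sprague-Dawley rats of 6 to 8 weeks, all of which also carried a full-thickness skin wound on the dorsum of the foot. TO was the osteotomy alone, and TOE added radial extracorporeal shock wave therapy (rESWT), a pneumatic pressure pulse given through the skin over the osteotomy on days 2 and 4. The 8 libraries analysed were TO on day 2 at 0 h (before any shock wave), TO and TOE on day 2 at 4 h, TOE on day 2 at 24 h, and TO and TOE on day 4 at 4 h and at 24 h; TO on day 2 at 24 h was not analysed here. Each condition had 1 library, and the number of rats behind a library is not stated, so a library is the unit and every p-value below rests on libraries of different conditions. The osteotomy site is bone with its marrow, and fewer cells of a type cannot be told apart from a different yield of that type on dissociation. In TOE 4d 24h 0 cells had over 5% of their UMIs from haemoglobin genes, against 413 to 674 cells in each of the other libraries.

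The promoters of the leading granule genes are shown first, because these granule genes separate the cell classes described below and because Prss34 divided the libraries. Each runs from 250 bases before the gene start to 50 after it, in RefSeq on build GRCr8, read in the direction of the gene. Capitals mark GATAA or its reverse TTATC, the core motif of GATA factors such as Gata2. Mcpt8 (a basophil granule protease, chr15:33769399-33769698 (plus strand)) and Prss34 (a basophil serine protease, chr10:14820197-14820496 (plus strand)) stand for basophils. Mcpt1l1 (a chymase-like protease, chr15:33876846-33877145 (minus strand)), Tpsab1 (a tryptase, chr10:14867253-14867552 (minus strand)) and Cpa3 (a carboxypeptidase, chr2:104673188-104673487 (minus strand)) stand for mast cells.
Mcpt8: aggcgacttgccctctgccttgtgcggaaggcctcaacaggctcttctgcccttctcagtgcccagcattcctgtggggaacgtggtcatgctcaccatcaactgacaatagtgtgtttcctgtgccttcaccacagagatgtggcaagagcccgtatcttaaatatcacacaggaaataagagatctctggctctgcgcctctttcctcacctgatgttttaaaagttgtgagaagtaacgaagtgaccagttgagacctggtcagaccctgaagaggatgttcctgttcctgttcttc
Prss34: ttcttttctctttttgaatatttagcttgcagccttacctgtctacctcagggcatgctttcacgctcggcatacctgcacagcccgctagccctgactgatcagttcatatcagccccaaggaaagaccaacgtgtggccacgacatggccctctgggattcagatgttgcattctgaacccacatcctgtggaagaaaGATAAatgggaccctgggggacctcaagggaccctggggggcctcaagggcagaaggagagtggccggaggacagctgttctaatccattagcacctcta
Mcpt1l1: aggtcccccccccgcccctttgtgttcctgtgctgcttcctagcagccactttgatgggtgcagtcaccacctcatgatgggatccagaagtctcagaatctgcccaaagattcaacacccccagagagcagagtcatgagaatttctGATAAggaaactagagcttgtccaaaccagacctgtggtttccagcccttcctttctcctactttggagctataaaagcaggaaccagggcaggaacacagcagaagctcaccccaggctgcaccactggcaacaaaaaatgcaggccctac
Tpsab1: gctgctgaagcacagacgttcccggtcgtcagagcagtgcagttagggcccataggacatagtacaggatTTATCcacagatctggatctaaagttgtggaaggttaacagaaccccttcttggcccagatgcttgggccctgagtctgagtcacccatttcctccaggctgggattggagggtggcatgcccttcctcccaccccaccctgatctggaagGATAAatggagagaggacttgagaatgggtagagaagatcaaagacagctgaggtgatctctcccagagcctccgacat
Cpa3: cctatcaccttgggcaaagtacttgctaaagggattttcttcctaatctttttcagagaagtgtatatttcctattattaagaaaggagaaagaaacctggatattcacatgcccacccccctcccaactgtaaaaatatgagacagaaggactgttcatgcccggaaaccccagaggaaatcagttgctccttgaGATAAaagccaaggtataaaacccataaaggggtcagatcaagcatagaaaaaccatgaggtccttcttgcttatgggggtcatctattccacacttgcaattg
The motif was in all of these windows but that of Mcpt8, and Tpsab1 held it on both strands. It occurred in 8881 of 33469 promoters of the same length (26.5%) and in 10 of the 20 promoters of granule protease genes, so a match describes the letters only. The window of Mcpt9 matched that of Mcpt8 at 283 of 292 aligned bases (96.9%). Mcpt8, Mcpt9 and Mcpt10 are related genes whose transcripts were not compared, so their counts are uncertain gene by gene.

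The gate drew its cells from both ends of a wide range. Members held a median of 3 UMIs of Ms4a2 and 74 UMIs of the other 4 genes together. Just inside the limits, 202 members had exactly 1 Ms4a2 UMI, 70 had exactly 2 UMIs of the other genes, and 68 had 1 Ms4a2 UMI with 2 to 3 of the others. Just outside, 649 cells had Ms4a2 with fewer than 2 UMIs of the others, 1726 cells had at least 2 UMIs of the others without Ms4a2, and 310 cells passed but for Cd79a. Of the 1726 cells, 111 had Mcpt8 at 1% or more of their UMIs.

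UMIs of the gate genes were also found in other cells. A UMI of Mcpt8 was found in 12.7% of the 63427 B cells (Cd79a at 3 UMIs or more, median depth 4946 UMIs), against 98.1% of members (median depth 8395 UMIs). The other gate genes were rare in B cells. Ms4a2 was seen in 0.758% of them, Fcer1a in 0.292% (55.6% of members), Cpa3 in 0.667% (36.7%) and Hdc in 1.03% (69.4%). Scrublet, a doublet caller, marked 1 member. No barcode of a member recurred in another library.

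Members formed 7 subsets on clustering, and the name given to the gate held for only some of them. Basophil-like cells made up 340 of the 581 members (58.5%, 2 subsets of 156 and 184 cells) and mast-cell-like cells 47 (8.09%). A further 92 cells (15.8%) were granulocyte-monocyte-progenitor-like and 43 (7.40%) neutrophil-like. The last 2 subsets, of 28 and 31 cells, were left unnamed. Each name rests on its markers among the genes highest over all other cells, and the levels below describe the subsets that those genes defined. Of the markers measured, 6 of 11 were raised in each basophil-like subset and 10 of 13 in the mast-cell-like one. The progenitor-like subset had 6 of 6 raised and the neutrophil-like subset 4 of 10. Among the 10 leading genes of each basophil-like subset, Mcpt8 and Prss34 were basophil markers and Mcpt10 and Cma1 were on the mast cell list. Prg2, also among them, is on the eosinophil list. Mcpt8 is a gate gene that helped choose the cells, so Prss34 is the basophil marker among them that lies outside the gate. The subset of 184 also held Cpa3 among its leading genes. Cpa3 is a gate gene on the list shared by both cell types and stands higher in mast-cell-like cells.

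The progenitor-like and neutrophil-like cells passed the gate with few molecules. Progenitor-like cells had a median of 1 Ms4a2 UMI and 4 UMIs of the other gate genes in 33386.5 UMIs, whereas basophil-like cells had 4 and 203 in 5600 UMIs. Neutrophil-like cells had 1 and 2 in 18974 UMIs. Progenitor-like cells were led by the primary granule proteases Prtn3 and Elane with Ctsg and Mpo, and Prtn3 stood at 8357 CPM (UMIs of the gene per 1000000 UMIs of the pooled cells) in them against 13.0 CPM in basophil-like cells. Neutrophil-like cells were led by defensins and Camp, and S100a8, an alarmin of neutrophils, stood at 49485 CPM against 1350 CPM in basophil-like cells.

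The unnamed subset of 28 cells combined genes of several lineages. It led the other members in Meis1, a homeobox factor of stem cells and megakaryocytes, in Car1 and in Mcpt1l3. Of 13 mast cell markers measured, 5 were raised in it over all other cells (Kit, Cma1, Mcpt2, Mcpt10 and Slc18a2). Mcpt2 was its leading gene in that comparison. Gata2 stood at 547 CPM, close to the 475 CPM of basophil-like cells, and Epx, the eosinophil peroxidase, at 339 CPM against 278 CPM. Its cells were deep, with a median of 20507.5 UMIs, and held 4.5 Ms4a2 UMIs. The unnamed subset of 31 cells was led over all other cells by Mcpt10, Mcpt8, Prss29 and Prss34, as the basophil-like subsets were. Over the other members it was led by Fcnb, Spp1, Gpnmb and S100a4, genes of monocytes and macrophages, and it held Mcpt8 at 6454 CPM with a median depth of 19513 UMIs. Of 11 basophil markers measured, 3 were raised in it, Mcpt8, Prss34 and Il3ra. The naming rules added after the data were seen left both of these subsets unnamed. The counts of mast-cell-like and basophil-like cells depend on those rules.

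**Figure D1:**
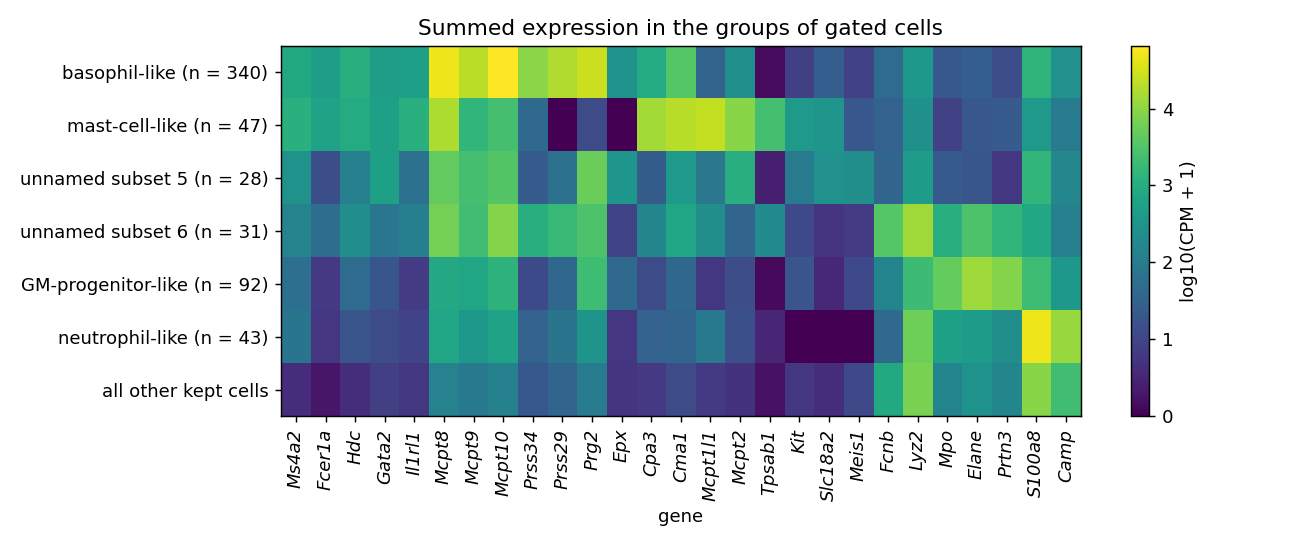
Summed expression of 27 genes (columns) in each group of gated cells and in all other kept cells (rows), as colour on the log10(CPM + 1) scale. Mcpt8, Mcpt10 and Prg2 are brightest in the basophil-like row, Cpa3, Cma1 and Mcpt1l1 in the mast-cell-like row, and the tryptase Tpsab1 is dark in basophil-like cells (0.4 CPM) and bright in mast-cell-like cells (2447 CPM).

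Basophil-like and mast-cell-like cells differed in their granule genes, as the heat map of summed expression shows. Fcer1g, outside the gate, stood at like levels in both classes. Ms4a2, Fcer1a and Hdc, and Mcpt8 and Cpa3 below, are gate genes, so their values are a description. Ms4a2, the beta chain of the IgE receptor, stood at 857 CPM in basophil-like and 1126 CPM in mast-cell-like cells. Its alpha chain Fcer1a stood at 496 and 592 CPM, and its gamma chain Fcer1g at 1180 and 1177 CPM. Hdc, which makes histamine from histidine, was likewise close, at 1071 and 922 CPM. Gata2 stood at 475 and 549 CPM.

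The granule proteases divided the classes. Mcpt8 stood at 50299 CPM in basophil-like cells and 16418 CPM in mast-cell-like cells, Mcpt10 at 65248 and 2451 CPM, and Mcpt9 at 21086 and 1483 CPM. Prg2, the major basic protein, stood at 26797 CPM in basophil-like and 11.8 CPM in mast-cell-like cells, and Prss34 at 9594 and 43.1 CPM. The tryptases ran the other way. Tpsab1 stood at 0.4 CPM in basophil-like and 2447 CPM in mast-cell-like cells, and Tpsb2 at 0.8 and 1687 CPM. The chymase-like Mcpt1l1 reached 23827 CPM in mast-cell-like cells against 33.3 CPM, Mcpt2 9154 against 257 CPM, Cma1 19658 against 3460 CPM and Cpa3 14237 against 927 CPM.

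Other mast cell genes followed the tryptases. Kit, the receptor for stem cell factor, stood at 408 CPM in mast-cell-like and 7.3 CPM in basophil-like cells. Hpgds, which makes prostaglandin D2, stood at 659 and 11.1 CPM, the melanocyte and mast cell factor Mitf at 298 and 5 CPM, and Tph1, which makes serotonin, at 322 and 1.9 CPM. Mrgprx2, a receptor for cationic peptides, stood at 153 CPM in mast-cell-like cells and 0 in basophil-like cells. The chemokine Ccl2 stood at 2255 and 15.3 CPM.

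Several mediators and receptors stood higher in basophil-like cells, in CPM pooled over libraries. Csf1, the macrophage growth factor, stood at 402 CPM in them and 126 CPM in mast-cell-like cells, Osm (oncostatin M) at 225 and 62.8 CPM, and Hgf (hepatocyte growth factor) at 214 and 3.9 CPM. Ptgs2, the inducible prostaglandin synthase, stood at 452 and 98.1 CPM. Il3ra, the receptor chain for interleukin 3, stood at 280 and 58.8 CPM, and the chemokine receptor Cxcr4 at 573 and 74.5 CPM. Il4, the cytokine best known from basophils, was low at 6.9 CPM, and Il5 and Il3 had no UMI. The IL-33 receptor Il1rl1 was present in both classes, at 520 CPM in basophil-like and 1153 CPM in mast-cell-like cells. Of the 47 mast-cell-like cells 20 came from TO 2d 0h. In that library basophil-like cells held Ptgs2 at 201 CPM, Osm at 156 CPM and Hgf at 103 CPM.

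The share of gated cells overlapped between treatments. Among TO libraries, members made up 0.434% of cells on day 2 at 0 h and 0.398% at the 4 h collection, then 0.644% and 0.702% at the 4 h and 24 h collections of day 4. In TOE they made up 0.472% at 4 h and 0.367% at 24 h after the first session, against 0.411% and 0.698% after the second. The mean log2 share was 0.16 lower in TOE (exact permutation test, two-sided, 4 against 4 libraries, p = 0.629, adjusted p = 0.657). At day 2 and 4 h the exact binomial intervals of TO (0.305 to 0.511%) and TOE (0.375 to 0.587%) overlapped.

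Day and hour were compared in the same way. The mean log2 share on day 4 was 0.53 above that of day 2 (exact permutation test, two-sided, p = 0.0857, adjusted p = 0.257), and TOE 4d 4h at 0.411% lay within the day 2 range. The smallest p that 4 against 4 libraries allow is 0.0286, which becomes 0.0857 when 1 of 3 comparisons reaches it and 0.343 when 1 of the 12 class tests below does, so adjusted values under 0.05 could not be had from a single separated comparison. The 4 h libraries lay 0.16 below the others on the same scale (exact permutation test, p = 0.657, adjusted p = 0.657). With every cell thinned to 2000 UMIs this difference was -0.84 (exact permutation test, p = 0.0857), and the median depth of members ran from 4855 UMIs (TO 2d 0h) up to 11757.5 (TOE 4d 24h).

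**Figure D2:**
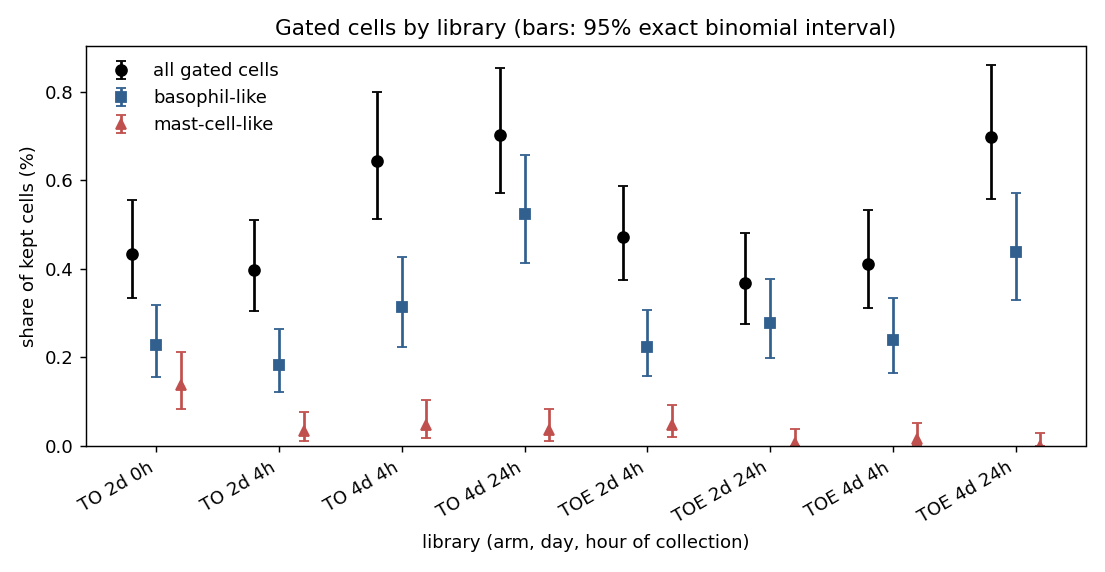
Share of kept cells in each library, in percent, that passed the gate (black), were basophil-like (blue) or were mast-cell-like (red), with exact 95% binomial intervals that cover counting error only. Gated cells run from 0.367% (TOE 2d 24h) up to 0.702% (TO 4d 24h) with TO and TOE overlapping, and the highest mast-cell-like point is TO 2d 0h at 0.138%.

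Basophil-like cells were the largest class and were compared alone. In collection order their share was 0.227%, 0.183%, 0.314% and 0.525% in the 4 TO libraries. In the 4 TOE libraries it was 0.224%, 0.277%, 0.238% and 0.438%. The mean was 0.294% in TOE and 0.312% in TO (exact permutation test, two-sided, p = 0.857). Day 4 averaged 0.379% and day 2 0.228%, a difference of 0.151 percentage points (exact permutation test, p = 0.0571, adjusted p = 0.411 over 12 class tests). The 4 h libraries averaged 0.240% and the others 0.367% (exact permutation test, p = 0.171).

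Mast-cell-like cells were rare and uneven. They numbered 20 of 14511 cells in TO 2d 0h (0.138%), then 5, 6 and 5 in the later TO libraries. The TOE libraries held 8, 1, 2 and 0, the last being 0 of 12329 cells, which allows a share of up to 0.0243% by the limit of 3 cells (0.0299% by the exact interval in the plot of shares). The mean share was 0.0171% in TOE and 0.0633% in TO (exact permutation test, two-sided, p = 0.114, adjusted p = 0.411). The TO mean leaned on TO 2d 0h, which has no TOE partner, as the other TO libraries stood at 0.0326 to 0.0471%. With so few cells, no gene was tested between libraries within mast-cell-like cells. Over the 7 libraries that held any, Tpsab1 ran from 132 CPM (TO 4d 24h, 5 cells) to 9863 CPM (TOE 2d 24h, 1 cell). Mcpt1l1 ran from 6173 CPM (TOE 2d 4h, 8 cells) to 52349 CPM (TO 2d 0h, 20 cells).

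Prss34 divided the libraries by hour of collection. In basophil-like cells it stood at 14559 CPM in TO 2d 0h, 14230 CPM in TO 4d 24h, 17786 CPM in TOE 2d 24h and 12148 CPM in TOE 4d 24h. At 4 h it stood at 619 CPM in TO 2d, 581 CPM in TO 4d, 497 CPM in TOE 2d and 574 CPM in TOE 4d. All the 0 h and 24 h libraries lay above all the 4 h libraries, with TO and TOE side by side in each set. The means were 14681 ± 2329 CPM (SD, n = 4) and 568 ± 51.2 CPM (SD, n = 4), 25.9 times apart, and the edgeR quasi-likelihood test gave a log2 change of -4.93 ± 0.17 (SE) at 4 h (adjusted p = 7.2e-08). In all members the change was -6.02. Over 17 settings, the leaving out of each library among them, the log2 change of Prss34 ran from -5.13 to -4.68 in basophil-like cells and passed in all. Prss34 had been left out of the gate because it was already known to differ between these libraries. It also helped to name the basophil-like subsets. The test is therefore not independent of what had been seen, and its p-value describes a known difference.

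The level in single cells differed in the same direction. A UMI of Prss34 was found in 81.8 to 92.5% of basophil-like cells at 0 h and 24 h and in 53.6 to 68.4% at 4 h. The median cell held 7209 to 11075 CPM in the first set and 394 to 415 CPM in the second. The part of free RNA in these shares and levels was not tested.

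Prss29, a neighbouring serine protease gene, followed the same course. It stood at 23677 CPM in TO 2d 0h, 25087 CPM in TO 4d 24h, 38201 CPM in TOE 2d 24h and 21003 CPM in TOE 4d 24h, and at 277 to 338 CPM in the 4 h libraries. The means were 26992 ± 7662 CPM (SD, n = 4) and 299.8 ± 27.0 CPM (SD, n = 4), with a log2 change of -6.72 ± 0.22 (SE) in the edgeR test. Prss34 and Prss29 lie on chromosome 10 with 2 annotated genes between them, LOC120095389 and Prss28l-ps1.

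**Figure D3:**
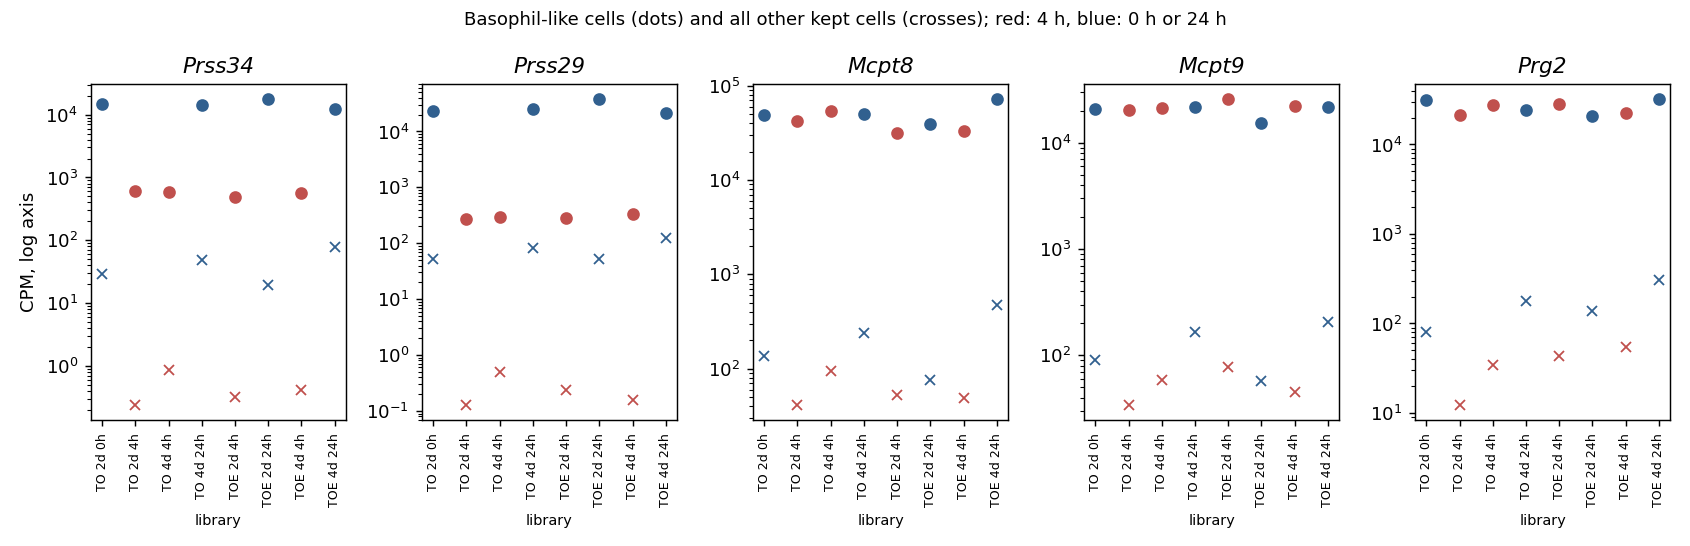
Level of 5 granule genes in each library, in CPM on a log axis, in basophil-like cells (dots) and in all other kept cells (crosses), with 4 h libraries in red and 0 h or 24 h libraries in blue. Prss34 dots lie at 497 to 619 CPM at 4 h and at 12148 to 17786 CPM otherwise, while the dots of Mcpt8, Mcpt9 and Prg2 overlap between hours.

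Within basophil-like cells the other leading granule genes overlapped between hours. Mcpt8 stood at 48582, 42603, 53973 and 50060 CPM in the TO libraries from 2d 0h to 4d 24h and at 31440, 38852, 32675 and 72291 CPM in the TOE libraries from 2d 4h to 4d 24h. Mcpt8 is a gate gene and its level is a description. Mcpt9 ranged from 15397 to 25838 CPM (log2 change at 4 h -0.07, edgeR adjusted p = 0.809) and Mcpt10 from 41924 to 76925 CPM (log2 change -0.04, adjusted p = 0.916). Without TMM factors these changes were 0.18 and 0.22, and neither gene was called under any of 16 other settings. Prg2 ranged from 21055 to 32282 CPM.

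In all members together more granule proteases fell at 4 h. Of the 11 tested outside the gate 5 fell and none rose, against 3.41% of all genes that fell. They were Prss34, Mcpt1l3 (log2 change -2.28), Cma1 (-1.15, edgeR adjusted p = 0.0346), Mcpt9 (-1.09, adjusted p = 0.0144) and Mcpt10 (-1.08, adjusted p = 0.0161). Prg2 fell by 1.38 on the log2 scale (edgeR adjusted p = 0.0152) and Fcer1g by 0.80 (adjusted p = 0.0484). The make-up of the members moved with the hour as well. Progenitor-like cells numbered 12, 11, 28 and 14 in the 4 h libraries and 2, 16, 2 and 7 in the others, and their part in these values was not tested. Among non-cycling members Prss34 was the 1 protease called of 10 tested, as it was without TO 2d 4h, TOE 2d 24h or TOE 4d 4h. Without TOE 2d 4h 2 were called, and without TO 2d 0h 3.

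Other cells of the same libraries showed the same division at much lower levels. That pool also holds the 111 ungated cells with Mcpt8 at 1% or more of their UMIs. It holds as well the 310 cells that passed the gate but for Cd79a. Which cells of the pool held the RNA was not tested. In all cells outside the gate Prss34 stood at 19.2 to 79.6 CPM in the 0 h and 24 h libraries and at 0.24 to 0.857 CPM at 4 h. The ratio of means was 96.4 there and 25.9 in basophil-like cells. In a fit with library as a block, the log2 change of Prss34 at 4 h was 1.58 ± 0.24 (SE) smaller in size in basophil-like cells than in other cells (edgeR adjusted p = 5.0e-08), and that of Prss29 1.54 ± 0.26 smaller (adjusted p = 1.3e-06). Against neutrophils alone the differences were 0.91 (edgeR adjusted p = 0.438) and 0.45 (adjusted p = 0.945), neither of which passed.

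Across all genes the hour of collection gave most of the calls. In basophil-like cells 113 of 4934 genes tested were called (2.29%, edgeR adjusted p under 0.05), 41 higher (0.831%) and 72 lower (1.46%) at 4 h. In all members 571 of 9087 were called (6.28%), 261 higher (2.87%) and 310 lower (3.41%), the latter with the gate genes Ms4a2, Fcer1a and Mcpt8 among them, which chose the cells and are no result. In the other kept cells of these libraries 360 of 21954 were called (1.64%). Hour of collection and whatever else the 4 h libraries share cannot be told apart. Scaling without TMM factors moved the median log2 change of the basophil-like genes from 0.02 to 0.28 and turned the split to 172 higher and 50 lower, with 379 and 226 for all members, so directions are given relative to the TMM scale. The counts leaned on single libraries. Leaving out 1 library gave 11 (without TO 4d 4h) to 352 (without TOE 4d 24h) in basophil-like cells, with 26 without TO 2d 0h or TOE 2d 4h, 30 without TO 2d 4h, 52 without TO 4d 24h and 53 without TOE 4d 4h. In all members it gave 113 without TO 2d 4h, 119 without TOE 4d 4h, 123 without TOE 2d 4h, 164 without TO 2d 0h, 294 without TOE 2d 24h and 301 without TO 4d 4h.

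Cd7, Dach1 and Pcna were among the genes higher at 4 h in basophil-like cells. Cd7, a surface glycoprotein best known from T and NK cells, stood at 705, 581, 652 and 1182 CPM in the 4 h libraries and at 152 to 276 CPM in the others, with no overlap (log2 change 1.47 ± 0.24 SE, edgeR adjusted p = 0.015). Dach1, a transcriptional cofactor, stood at 172 to 342 CPM at 4 h and at 19.7 to 91.1 CPM otherwise (log2 change 1.85). Pcna, the sliding clamp of DNA replication, stood at 281 to 336 CPM and 73.6 to 107 CPM (log2 change 1.52). The cAMP-responsive factor Crem, the elongation factor Ell2, the ribosomal protein gene Rpl23a and the mitochondrial ribosomal gene Mrps6 rose by log2 changes of 1.60, 1.62, 1.64 and 2.14. The Cd7 call was lost without TO 2d 0h, TO 2d 4h, TO 4d 4h or TOE 4d 4h and that of Pcna without TO 4d 4h, while the Dach1 call held without TOE 2d 24h or TOE 4d 24h and was lost without any of the other 6 libraries or without the Col1a1-high cells described below.

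**Figure D4:**
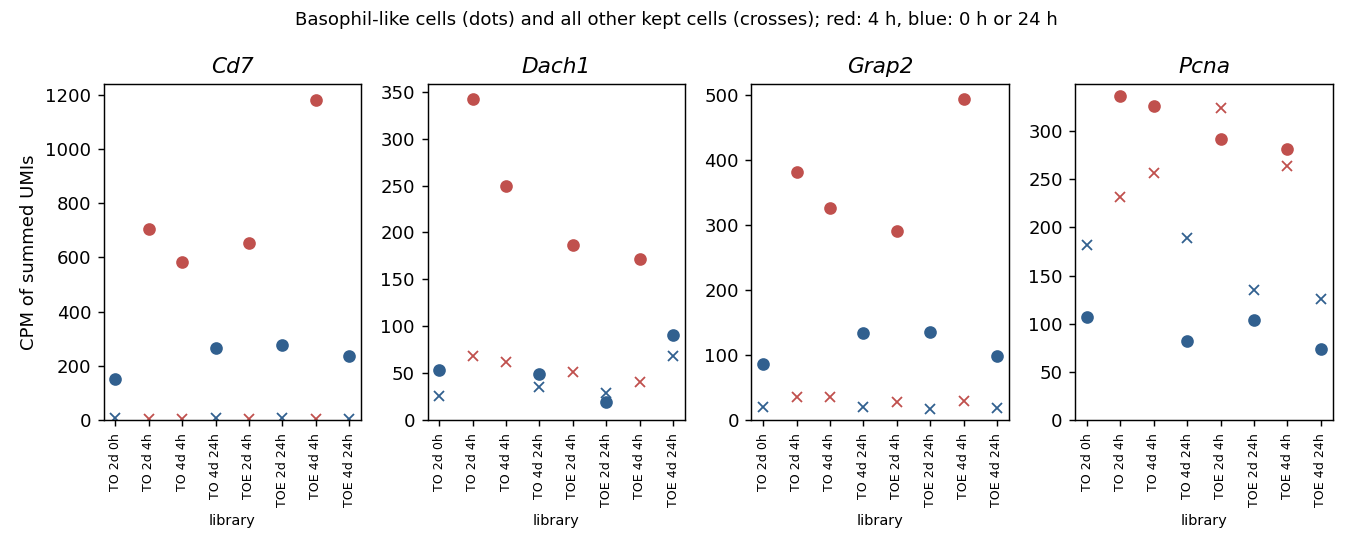
Level of 4 genes higher at 4 h, in CPM of summed UMIs on a linear axis, for basophil-like cells (dots) and all other kept cells (crosses), with 4 h libraries in red and 0 h or 24 h libraries in blue. Every 4 h dot of Cd7 (581 to 1182 CPM), Dach1, Grap2 and Pcna lies above every 0 h and 24 h dot, and the crosses of Cd7 stay near 0 in all libraries.

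Cd7 and Dach1 differed from other cells in this respect. In cells outside the gate Cd7 averaged 4.43 CPM at 4 h and 6.79 CPM otherwise, and its change at 4 h was 2.04 higher in basophil-like cells on the log2 scale (edgeR interaction, adjusted p = 6.1e-14). Dach1 averaged 55.9 and 39.7 CPM there, with a difference of 1.36 (adjusted p = 0.00239). Against neutrophils alone the differences were 2.13 and 1.55. Over all genes, differences from other cells in the hour term were called for 119 of 19790 genes in basophil-like cells (0.601%) and for 845 of 20099 in all members (4.2%). The treatment term gave 46 (0.232%) and 94 (0.468%), and the day term 40 (0.202%) and 57 (0.284%). DESeq2 called 24 and 342 for hour, 1 and 4 for treatment and 0 and 0 for day, and against neutrophils alone all members gave 132, 35 and 18 and basophil-like cells 118, 39 and 35. Most hour changes ran the same way in the other cells of these libraries, in 109 of the 113 genes called in basophil-like cells (96.5%) and 514 of the 571 called in all members. Both pools come from the same libraries, and the share of like signs over all genes was not taken. In other cells Pcna stood at 231 to 324 CPM at 4 h and 126 to 189 CPM otherwise, Rpl23a at 2070 to 2286 and 758 to 959 CPM, and Grap2 at 27.9 to 36.1 and 17.6 to 20.7 CPM. Of the 113 genes 18 had a called difference from other cells, 2 of them among those that rose, Cd7 and Dach1, and 16 among those that fell.

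Genes of the ribosome and of respiration made up part of the calls, in groups drawn by gene symbol after the calls were seen. Of 82 ribosomal protein genes tested in basophil-like cells 8 rose at 4 h, among them Rpl4 and Rps6, and 9 fell, among them Rps29 and Rpl38, beside 0.831% and 1.46% of all genes, and nothing is read from groups drawn this way. Without TMM factors these were 15 and 6. Of 87 genes of the respiratory chain and ATP synthase none rose and 13 fell, among them COX2, CYTB and Ndufa2 (median log2 change -0.60, against 0.02 over all genes). Without TMM factors 1 rose and 9 fell. Leaving out 1 library gave 1 (without TO 4d 4h) to 26 (without TOE 4d 24h) that fell, with 2 without TOE 2d 4h, 3 without TO 2d 0h, 4 without TO 2d 4h and 5 without TO 4d 24h or TOE 4d 4h. The ribosomal counts that rose and fell became 1 and 0 without TO 4d 4h, 2 and 1 without TO 2d 0h, 3 and 2 without TO 2d 4h, 4 and 2 without TOE 2d 4h, 5 and 6 without TO 4d 24h, 7 and 4 without TOE 4d 4h, 8 and 6 without TOE 2d 24h, and 10 and 16 without TOE 4d 24h.

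Among genes lower at 4 h were several of bone matrix. Bglap (osteocalcin) and Col1a2 (a chain of type I collagen) fell by 5.20 and 5.04 on the log2 scale. A UMI of Bglap was found in 39.1% of basophil-like cells, and the median cell held none. Basophil-like cells with Col1a1 over 1000 CPM numbered 9 of 74 in TO 4d 24h, 10 of 40 in TOE 2d 24h, 2 of 54 in TOE 4d 24h and 1 of 28 in TO 2d 4h, and 0 in the others. In other kept cells Col1a2 averaged 639 CPM at 4 h and 1767 CPM otherwise. The part of free or co-captured RNA in these values was not tested.

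Gene groups of mast cell and basophil function held few calls in basophil-like cells. Of 18 genes of IgE receptor signalling tested in basophil-like cells, 1 rose at 4 h and none fell, against 0.831% and 1.46% of all genes. That gene was Grap2, an adaptor of the receptor cascade, at 291 to 493 CPM at 4 h and 86.2 to 135 CPM otherwise (log2 change 1.45, edgeR adjusted p = 0.015). Of 9 granule proteases 1 fell, Prss34. Of 19 cell cycle genes 1 rose, Pcna. Of 13 heat shock chaperones 2 fell, Hspa8 and Hspe1, and of 9 glucocorticoid-responsive genes 1 fell, Txnip. No gene passed in either direction among 8 of histamine and granule matrix, 9 of eicosanoid synthesis, 9 cytokines and growth factors, 17 receptors and 19 transcription factors. At a background this low a count of 0 in a short list says nothing particular to it. Hdc stood at 1192 to 2254 CPM at 4 h and 520 to 1052 CPM otherwise, given as a description since it chose the cells.

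Shock wave treatment gave few calls in these cells. In all members 1 of 9087 genes was called (0.0110%), Lcn2, a neutrophil granule lipocalin, at 3.31, 27.0, 30.1 and 33.0 CPM in TO and 106, 199, 244 and 327 CPM in TOE. All TOE libraries lay above all TO libraries (log2 change 3.19 ± 0.38 SE, edgeR adjusted p = 0.041). The share of members with an Lcn2 UMI overlapped, at 3.17 to 26.8% in TO libraries and 18.9 to 45.6% in TOE libraries. The value of TOE 2d 24h rests on 117 UMIs in 10 of 53 cells, and that of TO 2d 0h on 2 UMIs in 2 of 63 cells. Neutrophil-like cells numbered 2, 3, 6 and 3 among the TO members and 4, 4, 5 and 16 among the TOE members, and their part in the Lcn2 value was not tested. The 9 neutrophil markers tested in members had a median log2 change of 1.38 with treatment, against 0.01 over all genes, and Lcn2 was the 1 called. In basophil-like cells alone Lcn2 overlapped between treatments, at 0 to 51.3 CPM in TO and 11.3 to 98.1 CPM in TOE. In the other kept cells it stood at 11.4 to 507 CPM in TO and 225 to 937 CPM in TOE. The Lcn2 call was lost without TO 4d 4h, TO 4d 24h, TOE 4d 4h or TOE 4d 24h. At an unadjusted p under 0.05 edgeR gave 550 genes, and DESeq2 called 14.

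In basophil-like cells 3 of 4934 genes were called for treatment (0.0608%), Col11a1, Col5a2 and Ibsp, all matrix genes of osteoblasts and cartilage. Col11a1 had 0 to 3.66 CPM in the TO libraries, 98.7 CPM in TOE 2d 24h, 839 CPM in TOE 4d 24h and no UMI in the TOE 4 h libraries. Ibsp stood at 158 and 440 CPM in the 2 TOE 24 h libraries and at 0 to 10.99 CPM elsewhere. Without cells over 1000 CPM of Col1a1 no gene was called, nor without TO 4d 24h or TOE 2d 24h, and 1 was called without TO 2d 0h, TOE 4d 4h or TOE 4d 24h. At an unadjusted p under 0.05 edgeR gave 156 genes, and DESeq2 called 1.

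The receptor chain and granule genes outside the gate did not pass for treatment. For Fcer1g, which ranged from 1059 to 1520 CPM, the log2 change in TOE was 0.07 ± 0.17 (SE). Prss34 gave -0.06 ± 0.15, Mcpt10 -0.14 ± 0.16, Mcpt9 0.00 ± 0.14, Prg2 -0.01 ± 0.17 and Srgn, the granule proteoglycan core, -0.14 ± 0.15. Of the gate genes, Ms4a2 ranged from 574 to 1025 CPM, Fcer1a from 316 to 676 CPM and Cpa3 from 539 to 1588 CPM over the libraries, as a description. The median over all genes was 0.01.

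Counts of 0 among genes of the IgE cascade, mediators and exocytosis stand beside a background of 0.0608% and so say nothing particular to these groups. Of 18 genes of IgE receptor signalling none was called for treatment (median log2 change -0.01, range -0.48 to 0.27), and of 14 genes of granule exocytosis none was called (median -0.00). The 9 cytokines and growth factors tested ranged from -0.82 to 3.55, the highest being Ccl4 at a median of 9.02 CPM. The study's question concerned small extracellular vesicles, and of 7 marker genes of these vesicles, among them Cd9, Cd63, Cd81 and Rab27a, none was called (median -0.00). Cd63 ranged from 2239 to 3102 CPM (log2 change -0.05 ± 0.14 SE) and Rab27a, a GTPase of granule docking, from 312 to 481 CPM (log2 change -0.00).

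Day gave no call. Of 9087 genes in members and 4934 in basophil-like cells, 0 passed between day 4 and day 2 (0% of each) in edgeR, where an unadjusted p under 0.05 was reached by 354 and 159 genes, and DESeq2 called 4 and 3.

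Matched pairs set TOE beside TO at the same day and hour, with 1 library on each side, so treatment and library cannot be told apart and the values stand side by side with no test. In basophil-like cells at 2d 4h, 32 of 1349 genes with at least 50 UMIs were over 2-fold higher in TOE and 54 over 2-fold lower. At 4d 4h the counts were 50 and 26 of 1580, and at 4d 24h they were 125 and 296 of 2972. The 4d 24h pair was the most divided. Its basophil-like cells also fell into different subsets, 52 of 54 TOE cells in the subset of 156 and 57 of 74 TO cells in the subset of 184. The other treated 24 h library, TOE 2d 24h, went the opposite way, with 5 cells in the subset of 156 and 35 in that of 184. The remaining libraries held 12 to 22 cells in the subset of 156 and 12 to 21 in that of 184.

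Those subsets differed in genes of other lineages as well as their own. The subset of 184 was led over other members by Hbb, Col1a1, Col1a2, Hba-a1 and Sparc, genes of red cells and bone, and by Cd9. The subset of 156 was led by Pgap1, the histone genes H2bc18 and H1f5, the eosinophil granule genes Epx and Prg3, and Aspm, a spindle gene of dividing cells. Epx stood at 314 CPM in it and 48.8 CPM over the other members, as means over cells.

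At 4d 24h several mediator and receptor genes stood lower in the treated library, as the plot of pair ratios shows. Osm stood at 17.5 CPM in TOE and 216 CPM in TO, a log2 ratio of -3.56. Ptgs2 stood at 124 and 803 CPM (log2 ratio -2.68), Csf1 at 182 and 520 CPM (-1.51) and Il1rl1 at 284 and 614 CPM (-1.11). Not all mediators were lower there, as Hgf stood at 235 CPM in TOE and 156 CPM in TO. In the other treated 24 h library, TOE 2d 24h, which has no TO partner here, Osm stood at 606 CPM and Ptgs2 at 683 CPM. The lowest ratios in this pair were those of haemoglobins, with Hba-a1 at 0 UMIs in TOE and 1203 UMIs in TO. Mcpt8 ran the other way, at 72291 and 50060 CPM. The earlier pairs did not repeat all of this, as the log2 ratio at 4 h was -0.24 on day 2 and -0.67 on day 4 for Osm, and -0.35 and 0.02 for Csf1. For Ptgs2 it was -2.04 on day 2 and -0.37 on day 4.

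**Figure D5:**
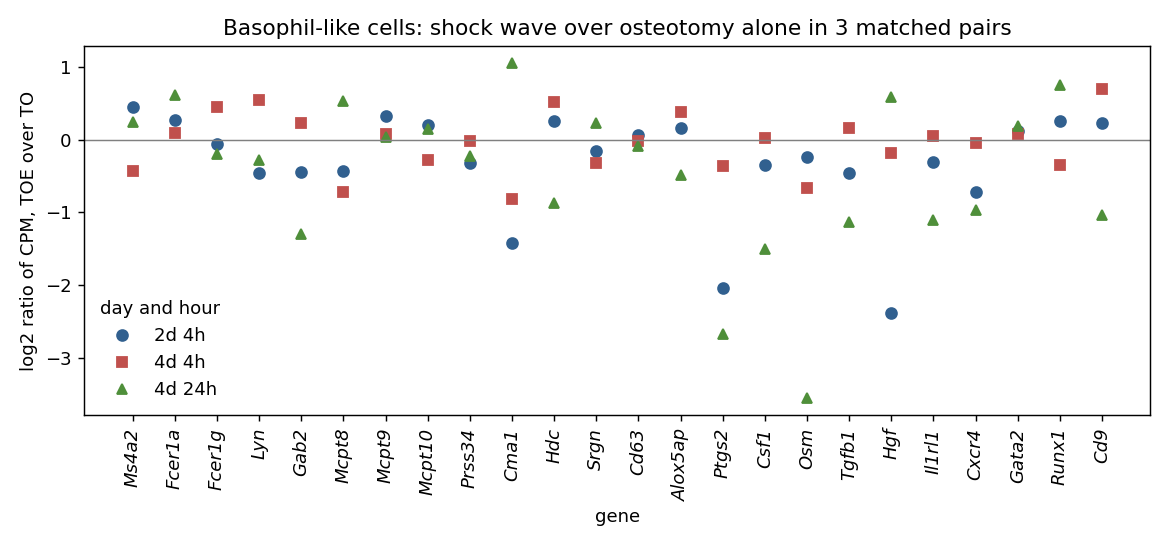
Log2 ratio of TOE over TO in basophil-like cells for genes of the receptor, granule and mediator groups, 1 colour and shape per matched pair and no test. Osm, Ptgs2, Csf1 and Il1rl1 are lower in TOE at 4d 24h, with ratios of -3.56, -2.68, -1.51 and -1.11.

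RT1-A3, a gene of MHC class I, was among the 5 highest ratios of both 4 h pairs, at 411 CPM in TOE and 32.9 CPM in TO at 2d 4h and at 379 and 76.6 CPM at 4d 4h. At 2d 4h Mcpt2 stood at 462 CPM in TOE and 32.9 CPM in TO, and Epx at 520 and 85.6 CPM, while the chaperone Hsph1 stood at 155 and 1910 CPM. The 4 lowest ratios of that pair were all haemoglobins, with Hba-a1 at 272 CPM in TOE and 7032 CPM in TO, and the part of red cell RNA in this pair was not tested. At 4d 4h Il6 stood at 281 CPM in TOE and 12.8 CPM in TO, with 49 UMIs in 2 of 33 cells and 4 UMIs in 2 of 40 cells. Gzmb (granzyme B) stood at 1130 and 79.8 CPM, the chemokine Ccl4 at 390 and 6.39 CPM and the defensin Defa5 at 2179 and 236 CPM. Gzmb ran the other way at 4d 24h, at 31.5 CPM in TOE and 458 CPM in TO. Prg3, an eosinophil granule gene, was lower at 4d 4h, at 11.5 and 332 CPM. Il6 was lower in TOE at 2d 4h, with a log2 ratio of -3.93 that rests on 22 UMIs in 2 of 28 TO cells and 2 UMIs in 2 of 38 TOE cells.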

How the data were processed

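Single-cell RNA was captured with the 10x Genomics 3' chemistry. The authors deposited filtered matrices of UMI counts per gene and barcode, made per the labels with Cell Ranger 9.0.0, with Seurat and R 4.0.3 also named; the labels list the build mRatBN7.2 beside GRCh38, and the role of each is not given in the sources used here. The matrices listed 41801 genes. Libraries held 12451 to 17187 barcodes and 95954800 to 144146202 UMIs, with 40 to 110 barcodes shared between libraries, the most between TOE 2d 4h and TOE 4d 4h.

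Kept barcodes (114232 of 116711) had 200 genes or more and no more than 20% of their UMIs from mitochondrial genes. They were gated on raw UMIs. The members and the gene lists were chosen with earlier results of these data known. Members were clustered with scanpy 1.11.5 (2000 variable genes, 30 principal components, 15 neighbours, Leiden resolution 0.5). A subset was named when at least 3 markers of a class were raised (log2 fold of 1 or more, at least 50 CPM, in at least 10% of its cells) and no other class had more markers among its 10 leading genes over all other cells. It was added after seeing the data that at least 50% of the raised markers had to lie at or above the other members. Also added then were the need for Tpsab1, Tpsb2 and Cpa3 in mast-cell-like cells and every fit on basophil-like cells. Doublets were scored with Scrublet (limit 0.25) and kept in the main results.

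UMIs were summed per library and fitted in edgeR 4.0.16 (quasi-likelihood test, TMM, filterByExpr) with treatment, day and hour class (4 h against 0 h and 24 h) as terms, so p-values measure the spread between libraries of different conditions. The call was an adjusted p (Benjamini-Hochberg over all genes tested) under 0.05. Differences from other cells were tested as interactions with the library as a block. DESeq2 1.42.0, other filters, gates and clusterings, and the leaving out of each library were alternatives. Shares were compared by exact permutation tests over 70 splits, and intervals cover counting error only. Fits were also run on simulated data, and nothing above rests on those runs. The simulated other cells carried no change with the hour, unlike the real ones. CPM is UMIs per 1000000 UMIs of the summed cells, and matched pairs used a prior of 0.5 UMI. Genes named were taken from those called with the largest changes at a mean of at least 50 CPM (12 per direction at most), listed genes, leading genes of subsets and the 5 highest and lowest ratios of each pair. Authors' cell type calls were not used here.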

Additional observations from a re-analysis of the deposited data

Results flagged for a closer look

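A library far from the others of its group was looked for in 104 checks of 4 libraries, and 7 were found, where chance gives about 1 in 20. The share of mast-cell-like cells in TO 2d 0h, 0.138%, stood far above the other TO libraries. Mcpt9 in basophil-like cells of TOE 2d 24h, at 15397 CPM, was far below the other 0 h and 24 h libraries. Hgf in TO 2d 4h, at 817 CPM, was far above the other 4 h libraries. The remaining 4 concern matrix genes in basophil-like cells. Col11a1 stood apart at 3.66 CPM in TO 4d 24h, which is only 2 UMIs, among TO libraries that otherwise held none. It also stood apart at 839 CPM (479 UMIs) in TOE 4d 24h, both among the TOE libraries and among those of 0 h and 24 h. Col5a2 stood apart at 11.5 CPM in TOE 4d 4h among the 4 h libraries, likewise a level of very few UMIs.

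For some of the genes named above the change at 4 h in basophil-like cells differed from that in all other cells by the interaction test. The differences on the log2 scale were 1.58 for Prss34, 1.54 for Prss29, 1.36 for Dach1, 2.04 for Cd7, -2.66 for Bglap and -3.93 for Col1a2. For Col5a2 and Ibsp they were -6.28 and -5.04. The fit gave -16.2 for Col11a1, which had no UMI in basophil-like cells of any 4 h library, so that value is no measure of size. For Prss34 and Prss29 the level at 4 h was lower in both pools and the ratio larger in the pool of other cells. Prss34 stood at 0.24 to 0.857 CPM at 4 h in that pool. The pool also holds 111 ungated cells with Mcpt8 at 1% or more of their UMIs and the 310 cells that passed the gate but for Cd79a.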

How the results depend on the processing

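Among the called genes named for the size of their change, none that was refitted under the alternatives turned sign. The sign of the other called genes was not compared. With 1 library left out, 72 of 186 refits of the named genes were weaker in basophil-like cells and 35 of 192 in all members. Changes near 0 of genes that were not called took either sign, as for Mcpt9 (-0.26 to 0.18) and Mcpt10 (-0.25 to 0.22) at 4 h in basophil-like cells, and without TMM factors the split of the hour calls turned, to 172 higher and 50 lower in basophil-like cells and 379 and 226 in all members. Without a limit on Cd79a the share of gated cells became 0.793% (TO 2d 0h), 0.903% (TO 4d 4h), 1.12% (TO 4d 24h), 0.702% (TOE 2d 4h), 0.582% (TOE 2d 24h), 0.585% (TOE 4d 4h) and 1.16% (TOE 4d 24h). With a stricter gate it was 0.303%, 0.183%, 0.385% and 0.447% in the TO libraries in order and 0.242%, 0.263%, 0.224% and 0.438% in the TOE libraries. With cells thinned to 2000 UMIs it was 0.172% (TO 2d 4h), 0.384% (TO 4d 4h), 0.245% (TOE 2d 4h) and 0.257% (TOE 4d 4h). Leaving out 1 library, the log2 difference in share ran from -0.35 to -0.03 for treatment, 0.45 to 0.71 for day and -0.34 to -0.03 for hour.

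In all members, shock wave gave 14 calls with DESeq2, 155 with no low-count filter, and 0 with each term alone, with 3 matched pairs as blocks or with the stricter gate. Day gave 4 with DESeq2, 98 with no filter, 6 with the stricter gate and 1 in non-cycling members. Hour gave 1119 with no filter, 292 with the stricter gate and 40 in non-cycling members. Leaving out 1 library gave 0 to 2 calls for shock wave, 0 to 2 for day and 113 to 676 for hour. In basophil-like cells, fits added after seeing the data gave for shock wave 1 (DESeq2), 64 (no filter), 0 (each term alone, matched pairs, Mcpt8 at 1% or more of UMIs, Col1a1-high cells left out) and 1 (with mast-cell-like cells). Day gave 3 (DESeq2), 42 (no filter) and 1 (Mcpt8 at 1% or more). Hour gave 222 without TMM, 350 with no filter and 259 with each term alone. Leaving out 1 library gave 0 to 3, 0 to 1 and 11 to 352. The cause of these shifts was not tested.

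Differences from other cells numbered 94 (shock wave), 57 (day) and 845 (hour) in all members. Against neutrophils alone they were 35, 18 and 132, and with DESeq2 4, 0 and 342. For basophil-like cells 46, 40 and 119 became 1, 0 and 24 with DESeq2 and 39, 35 and 118 against neutrophils. At Leiden resolution 0.3 the classes held 368 basophil-like, 166 progenitor-like and 0 neutrophil-like cells, and mast-cell-like cells stayed at 47. Clustering without the genes divided by hour in other cells left 335 of the 340 basophil-like cells in that class. It left 75 of the 92 progenitor-like cells in theirs and 0 cells neutrophil-like. Each condition has 1 library, so replicate numbers pair nothing. The pairing by collection, with the 3 matched pairs as blocks, gave 0 calls for shock wave in both populations. Mast-cell-like cells numbered 0 to 20 per library, and basophil-like sums held 151867 to 570973 UMIs per library.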
